A study of Mus musculus with 58 samples.

Results

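The collagen genes of the mouse were followed across 3 tissues (lung, liver and forestomach) after male Muta™Mouse had been given benz(a)anthracene (BaA) by mouth. Members were all genes whose symbol is Col, a chain number, the letter a and a further number. The RefSeq gene table lists 44 of them, and 42 were represented on the array, by 61 probes, among 20018 genes with a matched probe. Col6a3 and Col12a1 had no matched probe. A probe was tested in a tissue where its signal was well above background on at least 4 arrays of that tissue, which left 35 collagen genes (49 probes) tested in at least 1 tissue.

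The mice were 10 weeks old and of a transgenic line that carries a bacterial lacZ reporter for scoring mutations, an allele shared by every group. BaA, which belongs to the polycyclic aromatic hydrocarbons, was gavaged daily for 28 days with olive oil as the vehicle, and tissues were taken 72 h after the last dose. D0 denotes the vehicle group, given olive oil alone, D1 the group given 20 mg/kg-bw/day, D2 that given 40 and D3 that given 80. The 58 arrays came from 20 numbered mice. Every dose group had 5 arrays per tissue, except that liver had 4 at D3 and forestomach 4 at D0. Each array held the RNA of 1 tissue of 1 mouse in the Cy5 channel and a reference RNA pooled from 11 mouse cell lines in the Cy3 channel, so every value below, unless named otherwise, is a log2 ratio of tissue to reference. A ratio can be compared between samples for the same probe. It cannot be compared between probes, because the reference holds each transcript at its own level. The arrays carry no read depth, and the number of arrays per group limits the precision.

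Collagens are built from 3 α chains wound into a triple helix, and each Col gene encodes 1 α chain. Fibrillar collagens (types I, II, III, V, XI, XXIV and XXVII) form the load-bearing fibrils of connective tissue, and type V chains take part in setting fibril diameter. Type IV collagen forms the sheet-like network of basement membranes. Type VI forms beaded filaments, type VII anchors squamous epithelium to the tissue beneath it, and types XIII, XVII, XXIII and XXV span the cell membrane. In healthy liver fibrillar collagen is sparse and comes mainly from stellate cells, whereas Col18a1 is a known product of hepatocytes. In bulk tissue, a change in the number of cells of a type and a change in RNA per cell cannot be told apart.

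Col5a3 was the collagen gene called in liver against vehicle. Col27a1 and Col20a1 were not called there with all libraries in, but were at 1 or more doses without vehicle mouse 5, described below. The promoters of these genes are shown here for that reason. Each run is the 250 bases before the RefSeq transcription start in GRCm38.p6, read 5′ to 3′ on the strand of the gene. Capitals mark the core of the xenobiotic response element, GCGTG, to which the BaA-responsive aryl hydrocarbon receptor binds, and the GC box, GGGCGG, on either strand.
Col5a3, chr9:20815068-20815317, minus strand: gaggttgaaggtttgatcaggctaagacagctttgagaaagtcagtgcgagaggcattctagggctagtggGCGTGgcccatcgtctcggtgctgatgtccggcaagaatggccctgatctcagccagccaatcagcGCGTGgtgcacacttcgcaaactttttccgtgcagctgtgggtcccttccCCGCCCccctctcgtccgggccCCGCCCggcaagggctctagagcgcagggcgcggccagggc
Col27a1, chr4:63215162-63215411, plus strand: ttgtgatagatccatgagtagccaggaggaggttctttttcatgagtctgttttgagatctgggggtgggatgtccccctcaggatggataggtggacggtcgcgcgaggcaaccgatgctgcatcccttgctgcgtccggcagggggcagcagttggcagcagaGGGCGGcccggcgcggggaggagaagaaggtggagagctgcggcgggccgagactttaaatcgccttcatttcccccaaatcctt
Col20a1, chr2:180986285-180986534, plus strand: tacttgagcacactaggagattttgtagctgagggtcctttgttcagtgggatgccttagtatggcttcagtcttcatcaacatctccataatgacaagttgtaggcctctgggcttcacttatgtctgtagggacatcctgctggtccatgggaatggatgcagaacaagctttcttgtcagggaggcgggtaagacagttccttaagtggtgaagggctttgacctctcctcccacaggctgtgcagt
The Col5a3 window held 2 GCGTG cores, ending 175 and 109 bases before the start, 2 GC boxes on the opposite strand, at 58 and 36 bases, and 1 CCAAT box at 118 bases. The Col27a1 window held 1 GC box, at 80 bases, and the Col20a1 window held none of the 5 motifs searched, which also included TATAAA and CACGTG. Of all 32851 promoters of the same length in the table, 28.2% held GCGTG at least once, 8.63% held it at least 2 times and 32.7% held GGGCGG. Among the 34 collagen genes with a promoter in the table, 8 held GCGTG in at least 1 of their promoters, 21 held GGGCGG, 13 held CCAAT, 5 held TATAAA and 0 held CACGTG. These are counts of genes, whereas the shares over all promoters are per promoter, so they cannot be set against each other directly. Over all promoters CCAAT was found in 33.8%, TATAAA in 12.4% and CACGTG in 6.02%. The GC content was 62.8% for Col5a3, 59.6% for Col27a1 and 49.2% for Col20a1, against a median of 52.4% over all promoters. A motif match describes the letters of the window and was not tested against the expression values.

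Some libraries stood apart before any collagen was considered. In liver, the vehicle library of mouse 5 lay with the treated libraries. When it was left out, 319 probes were called at 1 or more doses, and at 240 of them (75.2%) its value was nearer the mean of the treated mice than that of the other vehicle mice. The same share was 18.4 to 35.9% for the other 4 vehicle livers. The library stayed in, and each liver result that rests on it is given with and without it. Leaving it out was chosen after its values were seen and makes a treated difference larger by construction. In lung, the vehicle library of mouse 5 carried more of the skeletal muscle and squamous epithelium markers than the other vehicle libraries, with summed levels (log2 of the sum of the linear ratios of the tested markers) of 7.31 against a group median of 1.36 and 5.60 against 1.91. Forestomach libraries differed in their glandular stomach content. The summed level of 9 glandular stomach genes was 4.54, 9.59, 4.73 and 4.30 in D0 mice 1 to 4 and 8.83 to 9.94 in the 5 D1 mice. Some D2 and D3 mice were as high as the D1 mice and others were lower. The share of probes well above background on an array ranged over 42.8 to 53.8% for lung, 32.8 to 44.6% for liver and 36.8 to 68.5% for forestomach. Each tissue had 3 slides, and slide 3 stood apart. It gave 42.8 to 48.1% for lung, where other arrays read at least 51.5%. Forestomach was alike, with 36.8 to 40.6% against 51.1% or more. Liver went the other way, at 39.4 to 44.6% against 38% or less. Vehicle libraries of liver mouse 5, lung mouse 5 and forestomach mouse 2 were on slide 3. So was vehicle liver mouse 2, whose share of probes nearer the treated mean was 35.9%. Whether the slide set any library apart was not tested. Defining markers of each tissue were found in the tissue named by the labels. Summed levels of 5 lung epithelium markers were 9.43 to 9.82 in vehicle lung. The 4 hepatocyte markers had a summed level of 8.84 to 9.43 in vehicle liver, and no lung epithelium marker out of 5 passed the background filter in liver. Squamous epithelium markers had a summed level of 7.53 to 8.24 in vehicle forestomach.

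The tissues differed in which collagen genes were detectable. Of the 35 genes, 30 were tested in lung, 19 in liver and 32 in forestomach, and the 19 of liver were tested in all 3 tissues. Col4a3, a chain of the specialised basement membrane of the alveolus and the glomerulus, was tested in lung only, as were Col26a1 and the transmembrane Col13a1. Col11a2, Col19a1, Col25a1, Col28a1 and Col9a1 were tested in forestomach only. Lung and forestomach, but not liver, shared Col15a1, Col17a1, Col23a1, Col5a2, Col6a5, Col6a6, Col8a1 and Col8a2. In no tissue did Col2a1, Col9a3, Col10a1, Col11a1, Col22a1, Col24a1 or Col6a4 reach the filter, several of which are chains of cartilage. Network collagens VIII and X and transmembrane collagens had 0 members tested in liver, whereas 5 of the 6 type IV genes and 6 of the 11 fibrillar genes were tested there. By Cy5 signal over the vehicle arrays, the 4 brightest collagen probes were those of Col1a2, Col3a1, Col6a1 and Col1a1 in both lung and forestomach, and of Col18a1, Col1a2, Col6a1 and Col5a3 in liver. These are probe signals on the arrays and do not rank transcripts per length.

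In vehicle mice more of the called collagen genes were lower than higher in liver, among probes tested in at least 1 tissue of each pair. Every collagen gene tested in liver was also tested in lung and forestomach, whereas others entered only through lung or forestomach. The counts are therefore tilted towards lower in liver. Requiring a probe to be tested in both tissues left 19 of the 29 collagen probes called between lung and liver. Called probes tested in both went both ways. Those of Col14a1, Col18a1, Col20a1, Col27a1, Col4a6 and Col5a3 were lower in lung. Those of Col16a1, Col1a1, Col1a2, Col3a1, Col4a1, Col4a2, Col4a4, Col4a5, Col5a1, Col6a1 and Col6a2 were higher in lung. With 1 probe per gene, 21 of 30 collagen genes differed between lung and liver of vehicle mice, 17 higher and 4 lower in lung (limma, Benjamini-Hochberg adjusted p of at most 0.05 and a fold change of at least 1.5). The 17 include Col13a1, Col17a1, Col23a1, Col4a3, Col4a4, Col4a6 and Col8a2, whose probes used here did not pass the filter in liver. Over all probes tested in this comparison 46.8% were called, 25.8% higher and 21% lower in lung. Between liver and forestomach 23 of 32 genes were called, 4 higher and 19 lower in liver, against 39.1% of all probes (17.7% higher and 21.4% lower). Between lung and forestomach 18 of 35 genes were called, 4 higher and 14 lower in lung, against 30.6% of all probes (16% higher and 14.6% lower). Each tissue was hybridised on 3 slides of its own, so slide and tissue cannot be told apart in these comparisons.

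**Figure D1:**
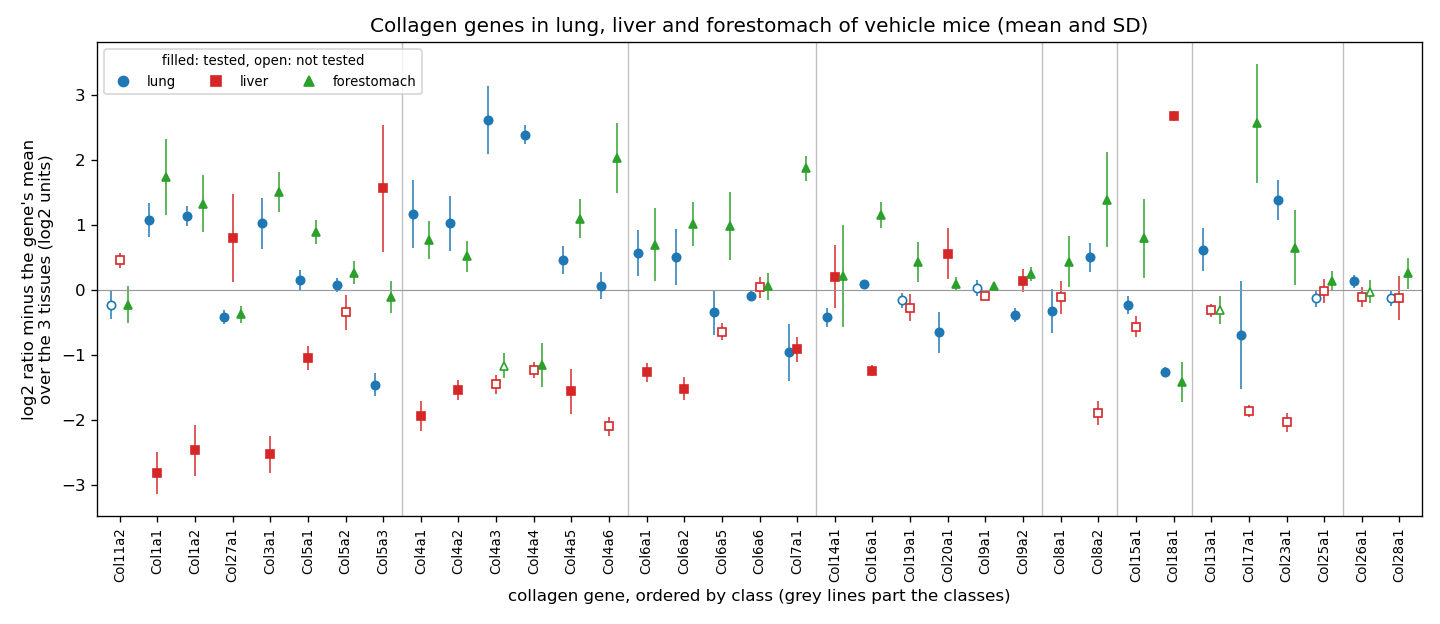
Mean log2 ratios of tissue to reference RNA for the collagen genes in vehicle mice (D0), each minus the gene's mean over the tissues. The tissues were lung (5 mice), liver (5 mice) and forestomach (4 mice), with 1 probe per gene. The values give the order of the tissues within a gene and not the level against the reference. Col1a1, Col1a2, Col3a1, Col4a1, Col4a2, Col6a1 and Col6a2 sit lowest in liver, Col18a1, Col5a3 and Col27a1 sit highest there, Col4a3 and Col4a4 in lung, and Col17a1 and Col7a1 in forestomach.

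The chains of fibrillar types I and III were much lower in liver than in lung or forestomach. Col1a1, the α1 chain of type I collagen, measured −5.34, −5.91, −5.89, −6.16 and −6.13 in the 5 vehicle livers. In lung Col1a1 measured −1.93, −2.07, −1.58, −2.19 and −2.21, and in forestomach −1.13, −2.18, −0.84 and −1.17. The liver values lay below all others, whereas lung and forestomach overlapped. The difference for Col1a1 was 3.89 on the log2 scale between lung and liver (SE 0.39, adjusted p = 6.75e-13 by limma, 14.8-fold) and −4.56 between liver and forestomach (SE 0.41, adjusted p = 3.61e-14), whereas lung and forestomach differed by −0.67 (adjusted p = 0.17). Col1a2, the partner chain in type I collagen, and Col3a1, the only chain of type III, followed the same order, with lung minus liver differences of 3.61 and 3.56 and liver minus forestomach differences of −3.80 and −4.03. Col5a1, which joins type I in mixed fibrils, differed less, by 1.20 and −1.94. Of the 7 fibrillar genes tested between lung and liver, 4 were higher and 2 lower in lung.

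Col5a3 and Col27a1 had the opposite order and were higher in liver than in both other tissues. Col5a3 encodes the α3 chain of type V collagen. Its vehicle values were 1.29, 1.47, 1.35, 1.36 and −0.82 in livers of mice 1 to 5, −2.14, −2.17, −1.97, −2.32 and −1.87 in lung and −0.56, −1.06, −0.54 and −0.83 in forestomach. The livers of mice 1 to 4 lay above every lung and forestomach, and that of mouse 5 lay within the range of forestomach. The mean Col5a3 ratio was 0.93 ± 0.98 in liver (SD, n = 5), −2.10 ± 0.18 in lung (SD, n = 5) and −0.75 ± 0.24 in forestomach (SD, n = 4). Lung minus liver was −3.03 (SE 0.33, adjusted p = 1.08e-11 by limma), liver minus forestomach 1.68 (adjusted p = 4.07e-05) and lung minus forestomach −1.35 (adjusted p = 0.000918). With median centring in place of loess, liver minus forestomach for Col5a3 was 0.55 and no longer called (adjusted p = 0.285). Without mouse 5 in any tissue the Col5a3 differences were −3.52 for lung minus liver and 2.11 for liver minus forestomach. Col27a1, a fibrillar chain with a shortened helix, measured 1.43, 1.33, 1.33, 1.30 and −0.17 in the same livers, −0.31 to −0.02 in lung and −0.30 to 0.03 in forestomach. Its lung minus liver difference was −1.22 and its liver minus forestomach difference 1.18, and without mouse 5 they were −1.51 and 1.48. Over all doses the Col27a1 probe was well above background on 16 of 20 lungs, 10 of 19 livers and 7 of 19 forestomachs. Its forestomach level is therefore not exact. The liver of mouse 5 again fell in the range of the other tissues.

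Col18a1, which encodes the precursor of endostatin and belongs to the multiplexins of basement membrane zones, was the collagen gene with the largest excess in liver. It measured 3.27, 3.25, 3.26, 3.39 and 3.40 in liver, −0.56, −0.58, −0.62, −0.60 and −0.72 in lung and −1.05, −0.34, −0.90 and −0.84 in forestomach. The liver values of Col18a1 were well separated from the rest, with a difference of −3.93 between lung and liver (SE 0.14, 15.2-fold) and 4.09 between liver and forestomach (SE 0.15, 17.1-fold). The second Col18a1 probe gave −4.05 and 4.00. Col20a1, a fibril-associated chain, was lower in lung than in liver by 1.21 (SE 0.14) and 1.42 (SE 0.13) on its 2 probes.

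Type IV chains formed 3 patterns. Col4a1 and Col4a2, the pair present in nearly all basement membranes, were higher in lung than in liver by 3.11 (SE 0.18) and 2.56 (SE 0.15) and lower in liver than in forestomach by 2.71 and 2.05, with lung and forestomach within 1.5-fold. Col4a3 and Col4a4, which assemble with Col4a5 into the network of alveolar basement membrane, were highest in lung. Col4a3 measured 4.49, 4.51, 4.40, 3.55 and 3.47 in lung, between −0.18 and 0.21 in liver and between 0.15 and 0.57 in forestomach, and it was not well above background on any vehicle array of liver or forestomach. Read against the background limit of the arrays, Col4a3 was at least 11.5-fold higher in lung than in liver (limma adjusted p = 9.94e-31) and at least 11.9-fold higher than in forestomach (adjusted p = 2.24e-27). This bound is computed on the Cy5 signals and not on the ratios, and sets the mean of the bright group against, per array, the higher of the lowest signal among probes well above background and the dim probe's own signal. Col4a4 was higher in lung than in liver by 3.62 and than in forestomach by 3.55 on its brightest probe. That probe was well above background on only 1 of 19 livers, so its liver level is not exact. Col4a5 differed from liver by 2.02 in lung, with 8 of 19 livers well above background, and was 1.55-fold lower in lung than in forestomach. Col4a6, the partner of Col4a5 in epithelial and smooth muscle basement membranes, had the third pattern. It was at least 17.1-fold higher in forestomach than in liver and lower by 1.96 in lung than in forestomach. Lung minus liver for Col4a6 was 2.16, against livers none of which read the probe well above background, so that value has no exact liver level behind it. A second Col4a6 probe disagreed, with lung minus liver −0.61 and liver minus forestomach 0.06. Counted by gene on the brightest probe, 6 of 6 type IV genes were higher in lung than in liver, with a median difference of 2.84. The probes used for Col4a3, Col4a4 and Col4a6 did not pass the filter in liver and entered only through the other tissues. The second Col4a6 probe, well above background on 19 of 19 livers, was called lower in lung, so the count rests on the choice of probe.

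Collagens of stratified epithelium were highest in forestomach, whose lining is squamous. Col17a1, the hemidesmosomal collagen of basal keratinocytes, measured 4.57, 3.05, 5.04 and 4.89 in forestomach, 0.87, 0.78, 0.94, 0.46 and 2.58 in lung and −0.17 to 0.10 in liver. The highest lung value of Col17a1 was that of mouse 5, whose library also carried the squamous markers, and the lowest forestomach value was that of mouse 2, whose library carried the glandular stomach markers. Their part in the result was not tested. Col17a1 was at least 19.3-fold higher in forestomach than in liver and at least 1.95-fold higher in lung than in liver, and lung minus forestomach was −3.26 (SE 0.30, adjusted p = 1.16e-13 by limma). Col7a1, the anchoring fibril collagen, was 7.09-fold higher in forestomach than in lung and 6.89-fold higher than in liver, while lung and liver differed by −0.04 (SE 0.21, limma adjusted p = 0.861). Only 4 of 19 livers read the Col7a1 probe well above background, so its 2 liver comparisons have no exact liver level behind them. The values of Col7a1 were 0.76, 0.41, 0.53 and 0.80 in forestomach and −2.53 to −1.50 in lung, again highest in lung mouse 5.

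Several chains of the remaining classes were lower in liver than in lung or forestomach. Col6a1 and Col6a2, chains of the microfibrils that surround many cells, were higher in lung than in liver by 1.83 and 2.02 and lower in liver than in forestomach by 1.97 and 2.53. Col23a1, a transmembrane collagen, was at least 6.68-fold higher in lung and at least 4.59-fold higher in forestomach than in liver, and Col13a1, another, was at least 1.54-fold higher in lung than in liver and at least 1.74-fold higher than in forestomach. The sheet-forming Col8a2 was at least 8.79-fold higher in forestomach and at least 4.59-fold higher in lung than in liver. Col6a5 was at least 2.39-fold higher in forestomach than in liver. Col16a1, a fibril-associated chain, was lower in liver than in forestomach by 2.40 and higher in lung than in liver by 1.33 on its brightest probe. Another Col16a1 probe was not well above background on any vehicle liver and gives no fold for lung against liver. Col15a1, the second multiplexin, was higher in forestomach than in lung by 1.03 and than in liver by 1.36, with only 1 of 19 livers well above background. Among the 5 genes tested in forestomach only, Col19a1 was called higher there, but 0 of 5 vehicle lungs and 0 of 5 vehicle livers read it well above background, which leaves a bound of at least 1.15-fold against each. Col11a2, a fibrillar chain of type XI, was called higher in liver, at 0.68 for liver minus forestomach, although only 1 of 5 vehicle livers and 1 of 4 vehicle forestomachs read it well above background.

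Genes that make, cut, bind and sense collagen were compared in the same vehicle tissues. Over all probes, 25.8% were called higher and 21% lower in lung than in liver, 16% higher and 14.6% lower in lung than in forestomach, and 17.7% higher and 21.4% lower in liver than in forestomach. Of 26 tested genes for collagen synthesis and crosslinking, such as prolyl hydroxylases and lysyl oxidases, 14 were higher and 5 lower in lung than in liver, while 5 were higher and 13 lower in liver than in forestomach. Collagen-degrading enzymes were higher in lung for 9 of 13 genes against liver and 6 of 13 against forestomach, with 0 lower in each. Collagen receptors were higher in lung for 6 of 8 against liver and 4 of 8 against forestomach. Of 11 collagen-binding matrix genes, 6 were higher and 2 lower in lung than in liver, and 1 was higher and 6 were lower in lung than in forestomach. A gene entered a comparison if its probe was tested in at least 1 tissue of the pair. Fewer genes of each list were tested in liver than in lung or forestomach, so the counts are tilted towards lower in liver. Fewer degrading enzymes and receptors were tested in forestomach than in lung, which tilts those counts towards higher in lung.

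Few collagen genes passed the test for a BaA effect in any tissue. In lung, 0 of 39 collagen probes were called at D1 or D2 by limma with Benjamini-Hochberg adjustment (4 and 2 had an unadjusted p under 0.05) and 1 at D3, beside 0.00329%, 0.49% and 1.75% of all probes. In liver, 1 of 22 collagen probes was called at each dose, Col5a3 in every case, beside 0.241%, 0.483% and 0.395% of all probes. In forestomach 0 of 44 were called (7, 1 and 1 had an unadjusted p under 0.05), beside 0%, 0.00928% and 0.0248% of all probes. The slope on dose was called for 1 collagen probe in lung (11% of all probes), 0 in liver (0.908%, 2 with an unadjusted p under 0.05) and 0 in forestomach (0.0309%, also 0 at an unadjusted p under 0.05).

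**Figure D2:**
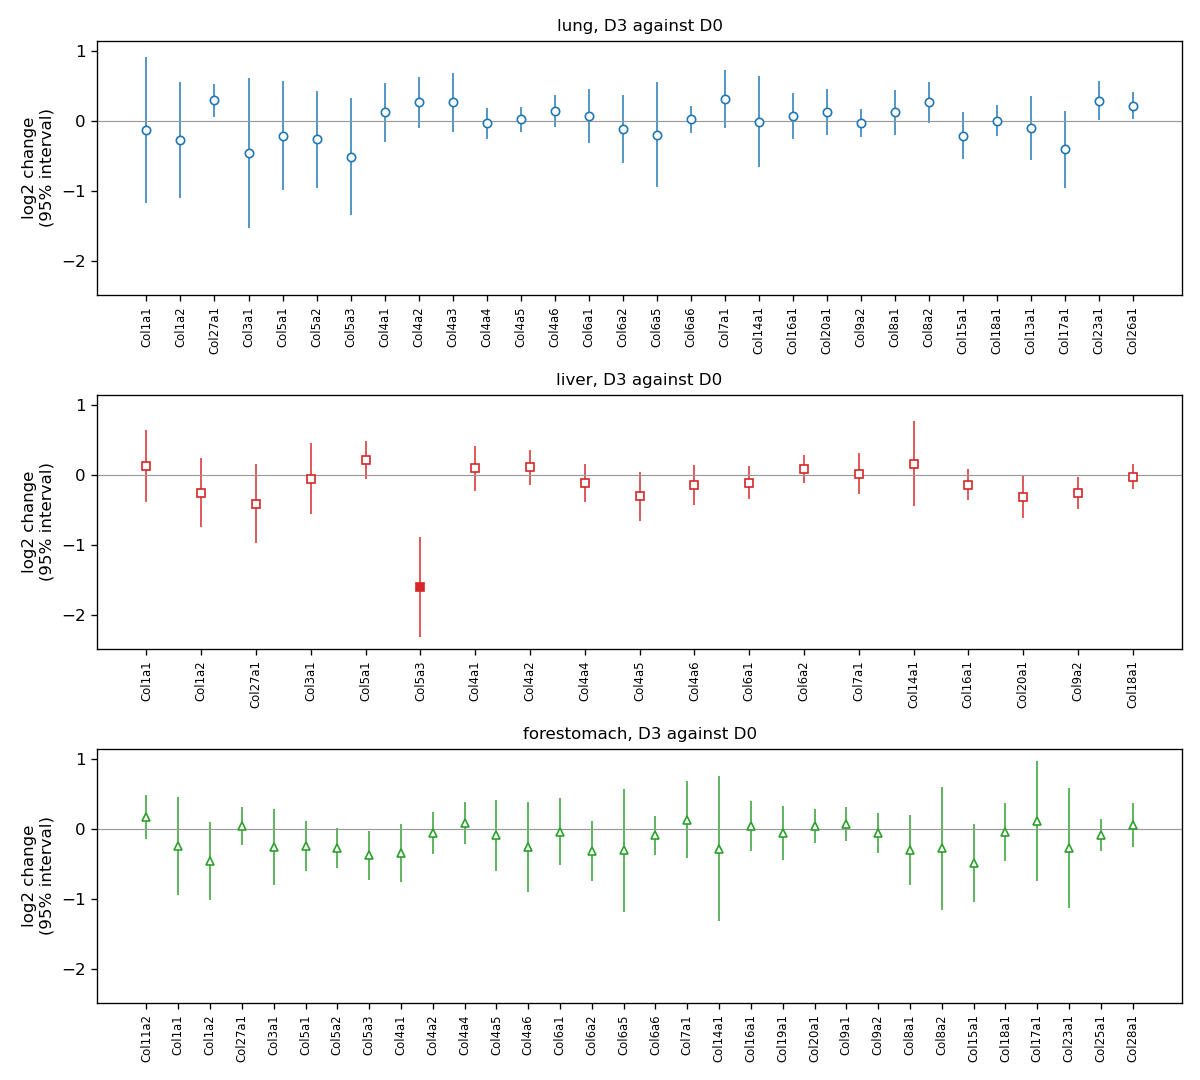
Log2 change at D3 (80 mg/kg-bw/day) against vehicle for each tested collagen gene in lung, liver and forestomach, 1 probe per gene. Most genes lie near 0, and Col5a3 in liver, at −1.59, stands farthest from it.

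Col5a3 fell in liver at every dose. The vehicle livers read 1.29, 1.47, 1.35, 1.36 and −0.82. The D1 livers read −0.91, −0.53, −0.97, −0.46 and −0.74, the D2 livers −0.95, −1.04, −0.61, −0.57 and −1.22, and the D3 livers −0.25, −0.46, −1.07 and −0.87. The livers of vehicle mice 1 to 4 lay above all 14 treated livers and did not overlap them, whereas that of vehicle mouse 5 lay inside the treated range. Against all 5 vehicle livers Col5a3 fell by 1.65 at D1 (SE 0.32, adjusted p = 0.0272), by 1.81 at D2 (SE 0.32, adjusted p = 0.00942) and by 1.59 at D3 (SE 0.34, 95% interval −2.31 to −0.88, adjusted p = 0.0282), all by limma with Benjamini-Hochberg adjustment. These correspond to 3.14-, 3.50- and 3.02-fold lower ratios. The 3 doses did not order Col5a3, and its slope on dose was not called (adjusted p = 0.155).

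The library of vehicle mouse 5 set the spread of this comparison. Without it the other 4 vehicle livers averaged 1.37 ± 0.074 for Col5a3 (SD, n = 4) against treated values of −1.22 to −0.25 with a median of −0.81 (n = 14). Col5a3 was then lower by 2.09, 2.24 and 2.03 at D1, D2 and D3 (4.24-, 4.74- and 4.08-fold), with adjusted p of 8.66e-07, 3.95e-07 and 6.13e-06. Leaving out any of the other 9 libraries of the D1 comparison, mice 1 to 4 and 6 to 10, ended the D1 call for Col5a3 (adjusted p up to 0.1). The D3 call ended without mice 1, 3, 4, 17, 18 or 19 (adjusted p up to 0.102), and the D2 call held in all 10 cases (adjusted p up to 0.0361). When only the 2 groups compared entered the fit, Col5a3 was not called at any dose, with adjusted p of 0.277, 0.0872 and 0.169. Within each of the 3 liver slides the treated mean of Col5a3 was below the vehicle mean at every dose, 9 differences of 9, from −2.33 to −0.58, the smallest ones on the slide that holds mouse 5. The reference channel of this probe moved by 0.11 to 0.15 while the tissue channel alone gave −1.55, −1.74 and −1.54.

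**Figure D3:**
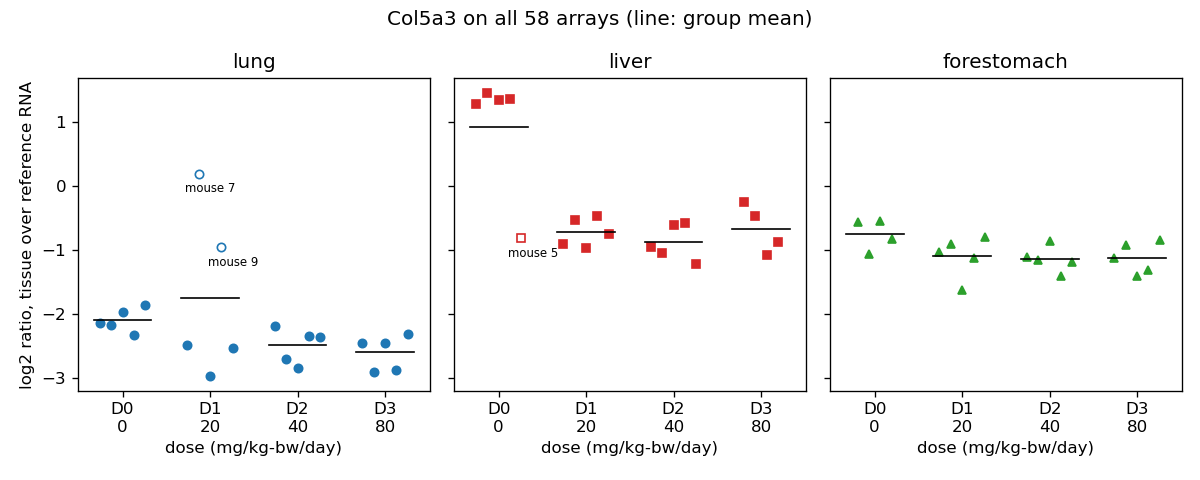
Log2 ratio of Col5a3 on every array, by dose group and tissue, with group means. In liver the vehicle values of mice 1 to 4 lie between 1.29 and 1.47, that of mouse 5 at −0.82, and all 14 treated values between −1.22 and −0.25.

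Lung and forestomach did not share a called change of Col5a3. In lung it read −2.14, −2.17, −1.97, −2.32 and −1.87 at D0 and −2.45, −2.91, −2.45, −2.88 and −2.31 at D3, a difference of −0.50 (adjusted p = 0.488). At D1 the lungs of mice 7 and 9 read 0.19 and −0.96, above the −2.98 to −2.49 of the other 3. In forestomach Col5a3 read −0.56, −1.06, −0.54 and −0.83 at D0 and −1.12, −0.93, −1.40, −1.31 and −0.84 at D3, a difference of −0.37 (adjusted p = 0.94). The D0 and D3 groups overlapped in both tissues. The difference between tissues in the Col5a3 response, lung minus liver, was 1.99 at D1 (adjusted p = 0.0597), 1.42 at D2 (adjusted p = 0.0822) and 1.09 at D3 (SE 0.48, adjusted p = 0.258) by limma's interaction contrast, and none passed. The D1 value includes the lungs of mice 7 and 9. Without mouse 5 in either tissue the differences for Col5a3 were 2.49, 1.91 and 1.58 (adjusted p of 0.000372, 0.0035 and 0.0266). The responses of liver and lung are therefore not shown to differ with all libraries in the fit.

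Col27a1 and Col20a1 were not called in liver at any dose with all libraries in, and were called at 1 or more doses without mouse 5. Col27a1 read 1.43, 1.33, 1.33, 1.30 and −0.17 at D0, 0.23, 0.07, −0.17, 0.18 and 0.40 at D1, 0.02, 0.49, −0.15, 0.23 and 0.30 at D2, and 0.10, 0.88, 0.48 and 1.12 at D3. The livers of vehicle mice 1 to 4 lay above every treated liver, and mouse 5 lay at the lower edge of the treated values. The change of Col27a1 was −0.91 at D1, −0.87 at D2 and −0.40 at D3 (limma adjusted p of 0.19, 0.116 and 0.498). Without mouse 5 it was −1.21, −1.17 and −0.71 (adjusted p of 0.000503, 0.000601 and 0.0479) and was called at each dose. Col27a1 was read well above background on 1 of 5 D1 livers, 2 of 5 D2 livers and 3 of 4 D3 livers, so its treated values lie close to the detection limit.

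**Figure D4:**
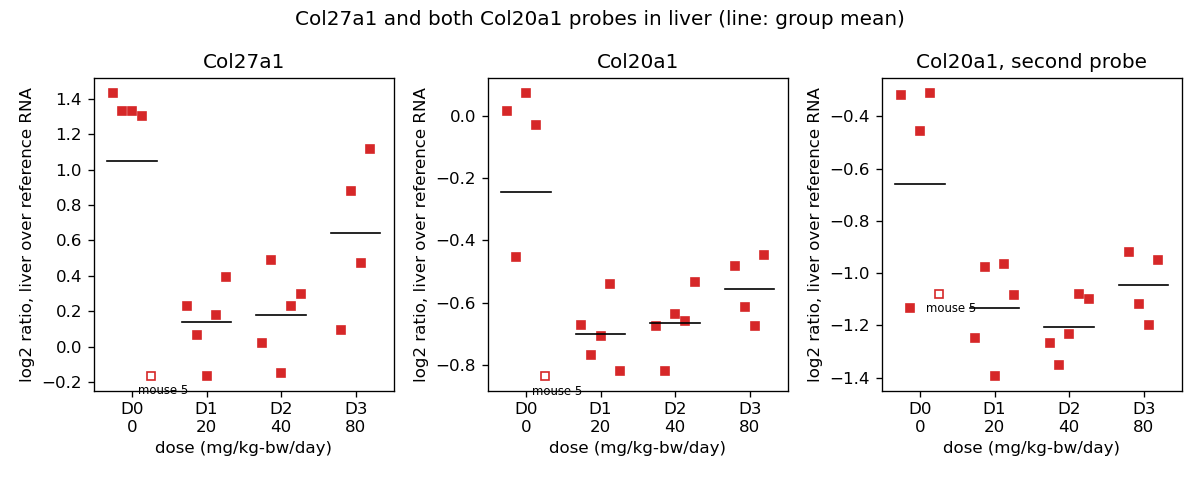
Log2 ratios of Col27a1 and Col20a1 in every liver by dose group, with group means. For Col27a1 the vehicle values of mice 1 to 4 lie at 1.30 to 1.43 and that of mouse 5 at −0.17, beside treated values of −0.17 to 1.12.

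Col20a1, a member of the group that decorates fibril surfaces, had 2 probes in liver. The first read 0.02, −0.45, 0.07, −0.03 and −0.84 at D0, −0.67, −0.77, −0.71, −0.54 and −0.82 at D1, −0.68, −0.82, −0.64, −0.66 and −0.53 at D2 and −0.48, −0.61, −0.68 and −0.45 at D3. Vehicle mice 1, 3 and 4 lay above all treated livers, mouse 2 lay at their upper edge and mouse 5 below them. With all libraries this probe of Col20a1 changed by −0.45, −0.42 and −0.31 (limma adjusted p of 0.232, 0.157 and 0.294). Without mouse 5 it was −0.60 at D1 (adjusted p = 0.00281, called), −0.57 at D2 and −0.46 at D3, the last 2 under 1.5-fold (adjusted p of 0.00374 and 0.0298). The second Col20a1 probe fell by 0.65 at D2 in that fit (adjusted p = 0.0185), and on it vehicle mice 2 and 5 read −1.13 and −1.08, beside −0.45 to −0.31 for the other vehicle livers. Only 1 of 5 D2 livers read the second probe well above background.

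At D2 the dose effect differed between lung and liver for 2 of 22 collagen probes (9.09%, against 2.09% of all probes). Col27a1 had a lung minus liver difference of 1.13 (SE 0.25, adjusted p = 0.00451 by limma). In lung Col27a1 read −0.31 to −0.02 at D0 and 0.04 to 0.25 at D2, so the groups did not overlap and the difference had the opposite sign to that in liver. The second Col20a1 probe had a difference of 0.61 (SE 0.18, limma adjusted p = 0.0495). The first and brighter Col20a1 probe was not called at D2, also not without mouse 5 (0.57, limma adjusted p = 0.0785). At D3 the interaction was called for 0 of 22 collagen probes between lung and liver (5 had an unadjusted p under 0.05, and 2.08% of all probes were called), 0 of 34 between lung and forestomach (0 with an unadjusted p under 0.05, and 0.274% of all probes called) and 0 of 21 between liver and forestomach (2 with an unadjusted p under 0.05, and 0.0227% of all probes called). Without mouse 5 in either tissue, the D2 differences were 1.43 for Col27a1 and 0.69 for the second Col20a1 probe (adjusted p of 2.37e-06 and 0.0194), Col5a3 joined them, and 2.65% of all probes were called. In that fit 3 of 22 collagen probes were called at D3 between lung and liver, those of Col27a1 and Col5a3 and the first of Col20a1, beside 2.49% of all probes.

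No other liver collagen passed the test with all libraries in. At D3 the largest increases were those of Col5a1 (0.21, adjusted p = 0.441), Col14a1 (0.16, adjusted p = 0.849) and Col1a1 (0.13, adjusted p = 0.855), none of which passed limma's test. For the 6 fibrillar genes tested in liver, 0 had a change above 0 at D1, with a median of −0.19, and 2 at each of D2 and D3. The 5 type IV genes had medians of 0.07 at D1, 0.06 at D2 and −0.11 at D3, against 0.01 over all probes at each dose.

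In lung, 1 collagen probe was called, that of Col4a4 at D3. Probe A_55_P2143837 read 3.13, 3.68, 3.25, 3.37 and 3.49 at D0, 3.08, 2.86, 2.42, 2.76 and 3.23 at D1, 3.27, 3.08, 2.69, 2.54 and 3.00 at D2 and 2.47, 2.58, 2.93, 2.63 and 2.93 at D3. The D3 lungs lay below all D0 lungs, whereas D1 and D2 overlapped D0. For this Col4a4 probe the change was −0.67 at D3 (SE 0.15, 95% interval −0.997 to −0.35, limma adjusted p = 0.0105), −0.51 at D1 (adjusted p = 0.412) and −0.47 at D2 (adjusted p = 0.132), and the slope was −0.0071 per mg/kg-bw/day (adjusted p = 0.0258). The 2 other Col4a4 probes were not called. The brightest, A_55_P2143832, read 3.51 to 3.83 at D0 and changed by −0.03 at D3 (SE 0.10, adjusted p = 0.901), and A_55_P2009918 changed by −0.19 (adjusted p = 0.638). The Col4a4 transcript as a whole therefore has 1 of 3 probes with a called change. The D3 call held without each replicate in turn (−0.74 to −0.60) and was lost with median centring (−0.44, adjusted p = 0.952). Within the 3 slides, each with 1 or 2 arrays per group and no test, the D3 mean of this probe minus the D0 mean was −0.88, −0.62 and −0.50. The slope call was lost without D0 mice 2 or 5 or D3 mice 16, 17 or 19 (adjusted p up to 0.0592).

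Other lung collagens did not pass the test at D3. The largest increases were those of Col7a1 (0.32, adjusted p = 0.362), Col27a1 (0.30, adjusted p = 0.108) and Col23a1 (0.29, adjusted p = 0.195). The largest decreases besides the Col4a4 probe were those of Col5a3 (−0.50, adjusted p = 0.488), Col3a1 (−0.45, adjusted p = 0.649) and Col17a1 (−0.40, adjusted p = 0.389). The Col17a1 mean at D0 includes the value of 2.58 from mouse 5. At D3 the lungs of mice 16 and 17 also carried squamous epithelium markers, with summed levels of 3.34 and 3.03 beside 1.59 to 1.90 in the other D3 lungs, and mouse 16 had a skeletal muscle level of 3.58. Col17a1 read 1.25 and 0.58 in these lungs and 0.36 to 0.82 in the others, and the part of these markers was not tested. Lung mesothelium markers, 4 genes of the lining of the pleura, had a median summed level of 1.15 (0.06 to 3.15) at D0 and −0.23 at D3, and their part in the collagen values was not tested.

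Fibrillar collagens differed widely among the D1 lungs. Col1a1 read −2.23, 1.33, −2.74, −0.54 and −1.98 in D1 mice 6 to 10, Col3a1 read −0.64, 2.68, −1.07, 0.86 and −0.65, and Col1a2 read −1.73, 1.05, −2.08, −0.46 and −1.48. In each case mouse 7 was highest and mouse 9 next, and the other 3 mice lay near or below the vehicle lungs. With all libraries 7 of 7 fibrillar genes were above 0 at D1, with a median change of 0.42, but 0 were called. Without mouse 7 the count was 2 of 7 with a median of −0.06, and without mice 7 and 9 it was 1 of 7 with a median of −0.34. The direction of the Col1a1, Col1a2 and Col3a1 changes at D1 thus rests on these libraries. The summed level of 6 fibroblast markers was 6.27 in D1 mouse 7 and 3.77 to 4.15 in the other D1 lungs, and its part in the result was not tested. At D3, where neither mouse enters, 1 of 7 fibrillar genes was above 0, with a median of −0.26 and 0 called.

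**Figure D5:**
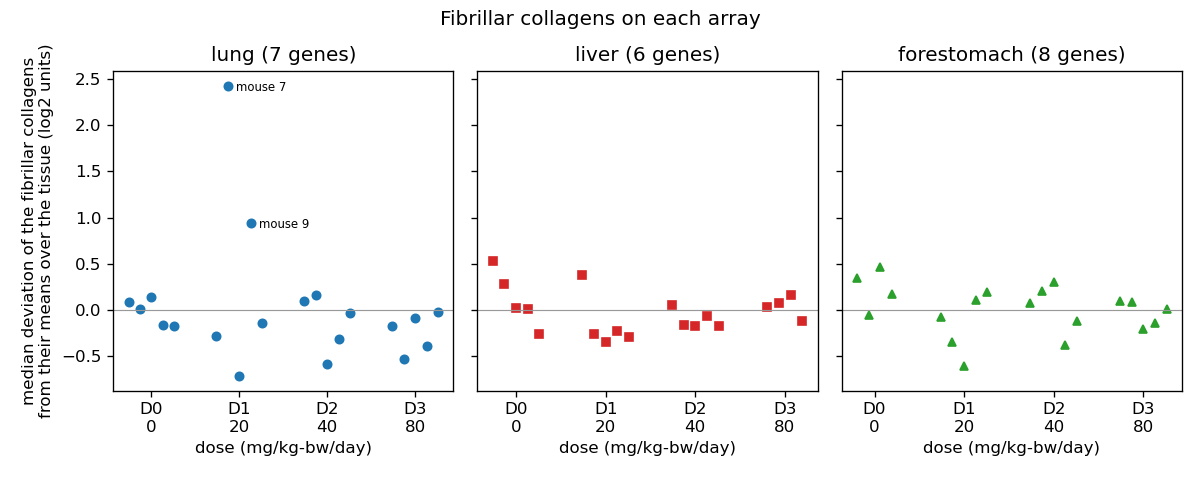
Median deviation of the fibrillar collagen genes from their means over the tissue, in log2 units, for every array by tissue and dose group. The lungs of D1 mice 7 and 9 sit highest, at 2.43 and 0.94.

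In forestomach most collagen genes lay below the vehicle level, without any call. At D1, 5 of 32 genes had a change above 0, with a median of −0.28 against −0.03 over all probes, at D2 6 of 32 with −0.13, and at D3 9 of 32 with −0.09. At D3 the largest decreases were those of Col15a1 (−0.48), Col1a2 (−0.45) and Col5a3 (−0.37), and the largest increases those of Col11a2 (0.17), Col7a1 (0.14) and Col17a1 (0.12), all with limma adjusted p of 0.94 or above. Col1a2 read −1.02, −1.83, −0.83 and −1.25 at D0 and −1.41, −1.42, −1.94, −1.98 and −1.67 at D3, so the groups overlapped. Of the vehicle forestomachs that of mouse 2 read lowest for Col1a2 and Col15a1 (0.62 beside 1.97, 1.47 and 1.87), and it was the vehicle library high in glandular stomach markers, as all D1 libraries were. D2 mice 14 and 15 (9.86 and 9.66) and D3 mice 19 and 20 (9.43 and 9.73) were as high in these markers. The other D2 and D3 mice had levels of 4.85 to 7.04. Without mouse 2 the median changes were −0.47 at D1, −0.32 at D2 and −0.30 at D3, with 0 called. Adipocyte markers (4 tested genes) had summed levels of 7.61, 2.57, 7.85 and 8.17 in D0 mice 1 to 4, 2.60 to 3.77 in D1 mice 6, 7, 8 and 10 and 7.61 in D1 mouse 9, with medians of 4.52 at D2 and 3.36 at D3. Fibroblast markers (6 tested genes) read 5.94, 4.48, 6.17 and 5.95 in the D0 mice and 4.04 to 5.57 at D1, with medians of 5.82 at D2 and 5.32 at D3. The part of the glandular stomach, fat and fibroblast content in the collagen values was not tested.

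Genes that act on collagen were followed across the doses as well. None of the tested genes for synthesis and crosslinking (26 in lung, 21 in liver and 26 in forestomach), breakdown (13, 6 and 10), collagen receptors (8, 4 and 7) or collagen-binding matrix (11, 10 and 11) was called at any dose. The slope on dose in lung was called for 1 of the 11 matrix genes and 0 of the other 3 lists, beside 11% of all probes. It was that of Tnxb, a matrix protein that binds fibrils, at 0.0073 per mg/kg-bw/day (limma adjusted p = 0.0257).

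Collagen values also varied within groups. The within-group SD of the tested collagen genes had a median of 0.302 in lung, 0.217 in liver and 0.309 in forestomach, and by percentile among all tested probes of the tissue the median collagen gene stood at 88.45, 68.9 and 78.75. Variation between animals of 1 group was therefore larger for collagen probes than for most probes in each tissue, as a description of these libraries.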

How the data were processed

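RNA from lung, liver and forestomach (Cy5) and a universal mouse reference RNA (Cy3) were co-hybridised to Agilent mouse arrays, with no dye swap. The authors deposited 1 file of linear spot intensities per array, which its header credits to version 10.7.3.1 of the Feature Extraction software. The authors normalised median signals by LOWESS without background correction, and the deposited table of log2 ratios was used here. Set against loess ratios computed from the scanner intensities, its columns correlated at r of 0.995 to 0.998, with slopes of 0.989 to 0.996, medians of −0.044 to −0.022 and 0% missing values. Scale and direction are thereby known. Whether the table was centred further is not given in the sources used here. A ratio is positive where the tissue exceeds the reference.

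Probes were named by matching their accessions to the RefSeq table of GRCm38.p6. Of the collagen genes, 14 had several probes. The tested probe with the highest mean Cy5 signal stands for the gene, and disagreeing probes are given for some of the named genes. Counted by any probe, 6 genes were lower in lung than in liver. Those added were Col4a6 and Col14a1, on a second probe (−0.92, limma adjusted p = 0.000606). Tables were read with data.table (1.17.8) and tests run with limma (3.58.1) under R (4.3.3). Models per tissue held 4 dose groups, and a joint model of 12 groups gave tissue contrasts (probes tested in at least 1 of the pair) and interactions (probes tested in both). All p-values are two-sided and Benjamini-Hochberg adjusted over every tested probe (30383 in lung, 22789 in liver, 32318 in forestomach). A call needed an adjusted p of at most 0.05 and a fold change of at least 1.5, and a slope only the former. limma replaced the authors' MAANOVA, which was not installed. The scripts were tested on simulated data.

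Tissues with the same mouse number came from the same animal, so mouse pairs the tissues. Deviations from group means correlated with a median r of 0.131 between lung and liver, 0.0985 between lung and forestomach and 0.0499 between liver and forestomach. The members and gene lists were chosen with earlier results of these data known. Named genes were Col5a3, members called in a dose contrast, slope or interaction, the 4 brightest per tissue, the 3 largest changes each way at D3, the 3 largest tissue differences each way and genes tested in 1 tissue. Others, such as Col5a1, Col6a2, Col8a2 and Col16a1, were named after their values were seen. Alternatives tried were scanner loess, processed signals, normexp background correction with an offset of 50, median centring, slide and mouse as blocks, fits of fewer groups, other filters, no minimum fold, Cy5 alone and leaving out each replicate.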

Additional observations from a re-analysis of the deposited data

Results flagged for a closer look

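A single animal stood away from the others of its group for these named collagen genes. In the vehicle livers, mouse 5 lay lowest of 5 for Col5a3 (−0.82 on the log2 ratio scale) and for Col27a1 (−0.17), with a gap to the nearest mouse above Dixon's 95% critical value. In lung, Col27a1 was lowest in D1 mouse 7 (−0.52) and highest in D2 mouse 15 (0.25). Over all tested collagen genes such a gap was found in 14 of 120 groups in lung (11.7%), 5 of 76 in liver (6.58%) and 3 of 128 in forestomach (2.34%), together 22 of 324 (6.79%), and chance gives about 1 in 20. Groups of genes from 1 library are not independent, since they share its RNA.

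The D2 effect differed between lung and liver by limma's interaction contrast for Col27a1 (1.13, higher in lung) and for the second probe of Col20a1 (0.61, higher in lung), though not for its first probe. Both differences are measured against vehicle livers that include mouse 5.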

How the results depend on the processing

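The number of collagen probes called changed with the processing as follows. With loess of the scanner values the lung slope was called for 3 probes in place of 1, adding Col26a1 and Col27a1. With the Cy5 signal alone, chosen after seeing the data, it was called for 3, adding Col23a1 and Col27a1, and with slide as a block for 2, adding Col27a1. Median centring left 0 called in lung at D3. Processed signals left 0 in liver at D1 and gave 2 at D2, where a Col20a1 probe joined Col5a3. The Cy5 signal alone left 0 in liver at D1 and 0 at D3. With only the 2 groups compared, liver had 0 called at each of D1, D2 and D3. Requiring a probe to be tested in both tissues left 19 of the 29 called between lung and liver and 16 of the 28 between liver and forestomach, since fewer probes were tested. The cause was not tested in the other cases. No result changed direction while called.

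Leaving out each replicate in turn gave 0 to 2 called slopes in lung, 0 to 3 calls in liver at D1, 1 to 3 at D2 and 0 to 2 at D3, and 0 to 3 for the D3 interaction of lung and liver. The tissue comparisons ranged over 28 to 30, 20 to 24 and 24 to 29 probes. The lung slope count was 0 without D0 mouse 2 or D3 mice 16 or 19 and 2 without D0 mouse 1, D1 mouse 7 or D3 mouse 20. The liver count at D2 was 2 without mouse 2, and the highest liver counts came without mouse 5.

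With mouse as a block, the correlation within mice was 0.0371, the paired counts were 29 between lung and liver, 24 between lung and forestomach, 28 between liver and forestomach and 0 for each D3 interaction, and the block changed no call. Of all recomputed counts 291 stayed within 1.5 times their main value and 39 did not. Small changes of dim probes, such as Col27a1 and Col20a1 in liver, are limited by signal over background.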
